A study of Mus musculus with 2 samples.

Results

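The glycolysis and pentose phosphate enzymes were described here as a set of 30 genes: the glucose transporters Slc2a1 and Slc2a3, the enzymes of each step from hexokinase to pyruvate kinase with their isoenzymes, the regulators Pfkfb3 and Pfkfb4, and the enzymes of the pentose phosphate pathway. A member was taken as every non-control probe whose RefSeq accession belongs to a gene of that symbol, which gave 43 probes for all 30 genes, out of 27115 probes for 20618 named genes on the array. In 29 members at least 1 probe was well above background on both arrays (40 probes), and 24 of the 29 rested on 1 probe. Hk3 was the exception. Older synonyms of the symbols also reach Pgm1 (once Pgm2), Eno1b (once Eno1) and Pigq (once Gpi1). The first 2 are given beside the members, and Pigq, an enzyme of membrane anchor synthesis, is no enzyme of these pathways.

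The cells came from mouse bone marrow and are labelled as B-cell acute lymphoblastic leukaemia (B-ALL), at an age of 8 weeks in both groups. They were sorted on the ratio of 2 fluorescence signals of SoNar into SoNar-high and SoNar-low groups, and the RNA of each was read on 1 one-colour Agilent array. SoNar is a fluorescent protein sensor of the cytosolic NADH/NAD+ balance. Titles name the samples N-myc-high (the SoNar-high cells) and N-myc-low, and the labels do not say how the leukaemia was made, how many animals gave cells, or whether animals were pooled. With 1 array a group no difference could be tested or checked in a replicate, and precision is limited by their number. What follows compares these arrays.

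Glycolysis splits glucose into pyruvate. Its upper steps spend ATP to make triose phosphates, and its lower steps return ATP and, at glyceraldehyde-3-phosphate dehydrogenase, turn cytosolic NAD+ into NADH. The pentose phosphate pathway branches off at glucose-6-phosphate: its oxidative arm makes NADPH, and its non-oxidative arm exchanges sugars between ribose-5-phosphate, needed for nucleotides, and glycolysis. Leukaemia cells, like other dividing cells, are known for high glucose uptake.

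A level below is the array's processed signal in intensity units, not scaled between the arrays, and a difference is the log2 value of SoNar-high minus that of SoNar-low after each array was divided by its own 75th percentile (409 units for SoNar-high, 470 for SoNar-low). Equal unscaled signals therefore give a difference of 0.20. The lowest probe well above background stood at 40.8 units on the SoNar-high and 17.7 units on the SoNar-low array. Over 10521 genes measured on both arrays the median difference was 0.22. The error given with a difference is combined from those the scanner software states for the spot signals. Where a gene has several probes, their errors were combined as if independent, which leaves out disagreement between the probes. This error ran from 0.08 to 0.31 over the members and covers spots, not cells, animals or sorts. From 196 probes printed as several spots, the difference at a single spot had a median SD of 0.15, and probes of 1 gene had a median SD of 0.32 between them.

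Glycolysis and pentose phosphate genes as a set had a median difference close to that of all genes. Past 2-fold, 1 of the 29 measured members was higher on the SoNar-high array (Aldoc) and 0 were lower, while 2.4% of all measured genes were higher and 4.39% lower by that much. At 1.5-fold, 5 members were higher (Slc2a1, Aldoc, Eno2, Rpe and Taldo1, 17.2%) and 1 was lower (Pgm2, 3.45%), beside 20.4% and 10.2% of all genes. Slc2a1 and Taldo1 fell short of 1.5-fold under some alternatives. They ran from 0.48 and 0.31 (loess) to 1.41 and 1.22 (scaling to the median of all probes). The median member stood at 0.25, against 0.22 for all genes, and the gap between these medians, 0.030, ran from -0.13 (stricter filter on dim probes) to 0.20 (no filter) over the alternatives. From the 25th to the 75th percentile the members ran from 0.042 to 0.44, and all genes from -0.15 to 0.52.

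**Figure D1:**
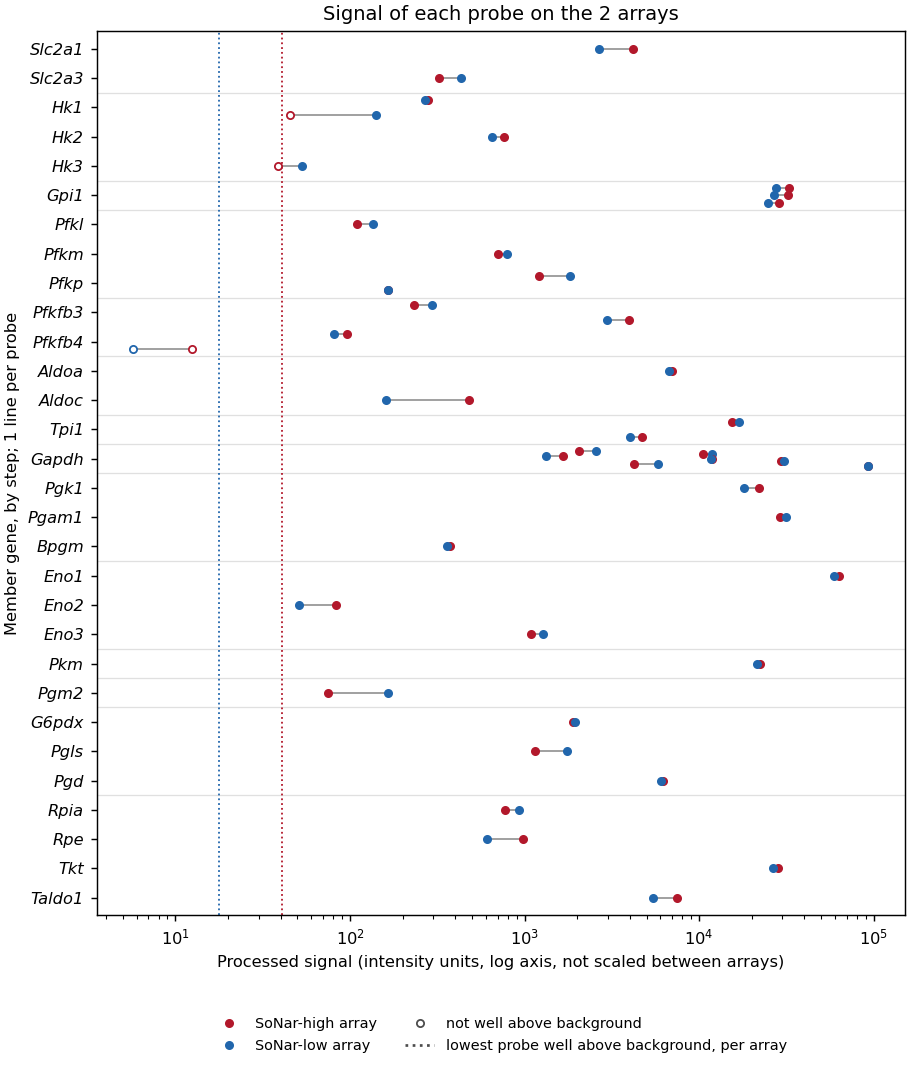
Processed signal of every member probe on the SoNar-high (red) and SoNar-low (blue) arrays in intensity units on a log axis, 1 line per probe, with genes ordered by step, open circles for probes not well above background and dotted lines at each array's lowest probe well above background. The points of most probes lie close together; Aldoc (477 and 160 units) and Pgm2 (74.4 and 166 units) are the widest pairs among probes above background on both arrays.

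**Figure D2:**
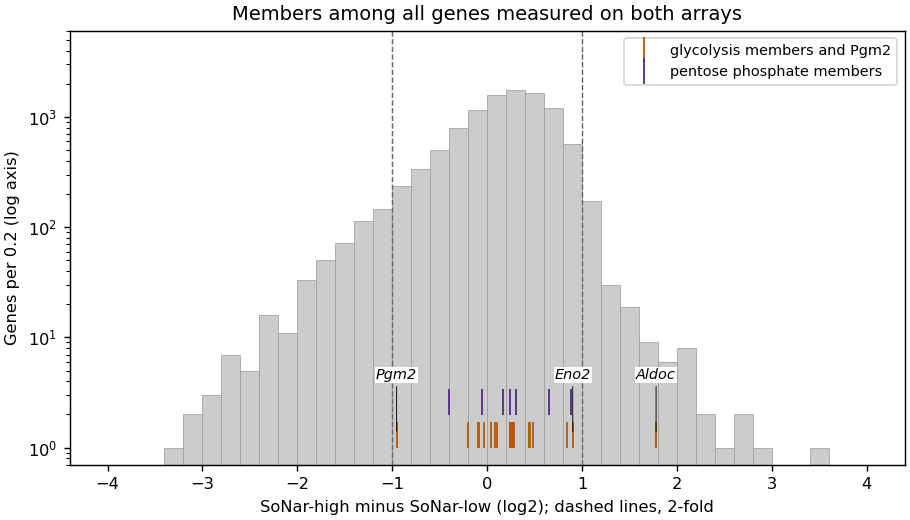
Histogram of the difference (SoNar-high minus SoNar-low, log2) of the 10521 genes measured on both arrays, with a log axis for the number of genes, and the 29 measured members as ticks. Aldoc at 1.78 is the member in the right tail, Pgm2 at -0.95 lies just inside the lower 2-fold line, and the other 27 lie between -0.40 and 0.90.

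Glucose uptake came first. Slc2a1 encodes GLUT1, the basal glucose transporter of blood and many tumour cells. Its signal was 4185 units on the SoNar-high and 2681 units on the SoNar-low array, a difference of 0.84 ± 0.20 (software error), with the higher signal on the SoNar-high array. Slc2a3 encodes GLUT3, a transporter with high affinity for glucose, and gave 325 and 430 units, a difference of -0.20 ± 0.21. The pair thus lay on opposite sides of the median gene, 1.05 apart, a gap that ran from 0.71 to 1.05 over the alternatives tried.

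Hexokinase, which traps glucose in the cell as glucose-6-phosphate, was measured by Hk1 and Hk2. Hk2, the growth- and hypoxia-inducible form, gave 767 and 648 units (SoNar-high first, here and below), a difference of 0.44 ± 0.21. Hk1, the housekeeping form, gave 281 and 268 units by its measured probe, a difference of 0.27 ± 0.21. A second Hk1 probe disagreed: it read 140.8 units on the SoNar-low array and 45.5 units on the other, where it was not well above background. These readings put SoNar-high 2.69-fold lower, a difference of -1.43 ± 0.46. That is the ratio of the readings and no firm bound, since 45.5 units lies above the SoNar-high floor of 40.8. A direction for Hk1 therefore depends on which probe is read. With that dim probe averaged in, Hk1 stood below Hk2 by 1.02.

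Hk3, a hexokinase of myeloid cells, passed background on the SoNar-low array alone, by 1 probe at 52.8 units against 38.9 units on the other. Of all named genes, 26.4% passed on SoNar-low alone and 0.053% on SoNar-high alone. For Hk3, SoNar-high was at least 1.13-fold lower, a bound set by the detection limit. Neutrophil marker genes, which come from cells known to express Hk3, had a median of -0.64 over 11 measured of 13 genes, with 1 of the 11 at least 2-fold lower and summed scaled signals of 47.8 (SoNar-high) and 57.4 (SoNar-low). Their part in the Hk3 signal was not tested. In sorted bulk RNA, fewer cells of a type and less RNA per cell cannot be told apart.

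Gpi1, the isomerase that makes fructose-6-phosphate and so stands where the pentose phosphate sugars rejoin glycolysis, was the member with the closest agreement among several probes. Its 3 probes read 32858 and 27460, 32328 and 27001, and 28595 and 24835 units, and all were higher on the SoNar-high array, with differences from 0.40 to 0.46. The gene stood at 0.44 ± 0.12.

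Phosphofructokinase, which commits sugar to glycolysis, has liver (Pfkl), muscle (Pfkm) and platelet (Pfkp) subunits, and their differences all lay below that of the median gene. Pfkl gave 110.1 and 134.6 units, a difference of -0.089 ± 0.25. Pfkm was printed as 10 spots, whose unflagged spots ran from 647 through a median of 706 to 783 units on the SoNar-high array (8 spots) and from 719 through 793 to 826 units on the SoNar-low array (10 spots). These ranges overlapped, and the scaled difference was 0.042 ± 0.21. Pfkp had probes at 1205 and 1823 units and at 164.3 and 164.0 units, with differences of -0.40 and 0.20 that put its mean at -0.096 ± 0.15. The 3 subunits lay within 0.14 of one another. Pfkm and Pfkp lay below the median gene under every alternative, and Pfkl did not. A constant scaling of an array cancels in this comparison, so alternatives of that kind could not change it. Platelet genes, set beside the platelet subunit, were measured on both arrays in 0 of 5.

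The bifunctional enzymes of Pfkfb3 and Pfkfb4 set the level of fructose-2,6-bisphosphate, the strongest activator of phosphofructokinase. Pfkfb3 had probes of opposite sign, which match different RefSeq transcripts. One read 3985 and 2966 units (0.63), and the other 232 and 295 units (-0.14), for a mean of 0.24 ± 0.15. Pfkfb4 was dim, at 95.6 and 80.5 units, a difference of 0.45 ± 0.27, and its second probe did not pass background on either.

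Aldolase held the one large difference of the set. Aldoc, the isoenzyme known from brain, read 477 units on the SoNar-high and 160 units on the SoNar-low array, a difference of 1.78 ± 0.21 or 3.44-fold, by 1 probe at 11.7 and 9.01 times the arrays' detection floors. It ranked 23rd from the top of 10521 genes. Aldoa, the isoenzyme of muscle and of most dividing cells, read 6961 and 6717 units, a difference of 0.25 ± 0.20, close to that of the median gene. Aldoc lay 1.53 above Aldoa. That gap does not depend on how an array is scaled by a constant, and it ran from 1.27 to 1.92 over the other alternatives.

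Among the enolases the neuronal form lay highest. Eno1, the form of most tissues, read 62896 and 59552 units, a difference of 0.28 ± 0.20. Eno2, the neuronal form, read 83.3 and 51.2 units, a difference of 0.90 ± 0.31, but at only 2.04 and 2.89 times the detection floors. Eno3, the muscle form, read 1094 and 1283 units, a difference of -0.029 ± 0.20. Eno2 lay 0.62 above Eno1 and 0.93 above Eno3, gaps that ran from 0.58 to 1.53 and from 0.73 to 1.82 over the alternatives. Of 9 muscle genes, set beside Eno3, 1 was measured (Acta1 at -0.49), with summed scaled signals of 0.638 and 1.14. The probe of Eno1 may also read Eno1b, a near-identical copy once named Eno1, whose own 2 probes stood at 0.10 and -0.42.

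Over the 6 families with isoenzymes, 10 pairs could be compared. A gap of at least 2-fold was seen in 2 pairs, Aldoc against Aldoa and Slc2a1 against Slc2a3. The first kept it under every alternative that measured both genes. The second lost it with normexp (0.74), quantile normalization (0.72), loess (0.79) and the series matrix (0.71), while Eno2 passed 2-fold over Eno1 and Eno3 with quantile normalization (1.27 and 1.64) and in the series matrix (1.53 and 1.82), and over Eno3 with loess (1.12). Aldoc and Eno2 are both known as isoenzymes of the nervous system, so neural marker genes were set beside them. Of 11 neuron genes 6 were measured, with 2 at least 2-fold higher (Rtn1 at 2.93, Syn1 at 1.19) and 1 at least 2-fold lower (Snap25 at -1.04), and summed scaled signals of 6.90 (SoNar-high) and 7.07 (SoNar-low). Snap25, Uchl1 and Tubb3 made up most of both sums, and Rtn1 read only 31.5 units on SoNar-low, where the floor was 17.7. Syt1 passed background on SoNar-high alone, Rbfox3 on SoNar-low alone, and Stmn2, Nefl and Nefm on neither. Of 5 oligodendrocyte genes all 5 were measured, with 3 above and 2 below 0. Of these 5 genes 2 were at least 2-fold higher (among them Mobp at 1.74), Mog stood at -0.84 and Cnp at -0.22. The sums were 6.88 and 6.69, of which Cnp made up most, and Mobp read only 28.7 units on SoNar-low. Of 7 astrocyte genes, the brain cells best known for Aldoc, 2 were measured (Aqp4 at -0.23, Aldh1l1 at -0.19), while Gfap passed background on SoNar-low alone and Slc1a2, Slc1a3, S100b and Gja1 on neither, and the sums were 1.36 and 1.47. The part of these cells in Aldoc and Eno2 was not tested.

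Promoter sequences are shown for Aldoc, the member past 2-fold, at both of its annotated starts, for 1 of the 3 Aldoa starts (2 of which have a match in their window), and for Eno2 and Slc2a1, the next members of glycolysis by difference. Each run is the 250 bases before a start, 5′ to 3′ on the gene's strand, from RefSeq on GRCm38.p6. Capitals mark ACGTG or its reverse complement CACGT, a form of the core that hypoxia-inducible factors bind. The other form, GCGTG or CACGC, was not searched, and both Aldoc windows and the Slc2a1 window hold it in lowercase. The E-box CACGTG, bound by MYC proteins and containing ACGTG, was searched too and is in none of these 5 windows.
Aldoc, first start, chr11:78322823-78323072, plus strand: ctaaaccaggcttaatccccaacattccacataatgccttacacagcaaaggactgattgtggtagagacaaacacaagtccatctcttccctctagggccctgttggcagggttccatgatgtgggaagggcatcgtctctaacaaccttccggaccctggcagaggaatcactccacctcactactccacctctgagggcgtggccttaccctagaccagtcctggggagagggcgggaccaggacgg
Aldoc, second start, chr11:78323948-78324197, plus strand: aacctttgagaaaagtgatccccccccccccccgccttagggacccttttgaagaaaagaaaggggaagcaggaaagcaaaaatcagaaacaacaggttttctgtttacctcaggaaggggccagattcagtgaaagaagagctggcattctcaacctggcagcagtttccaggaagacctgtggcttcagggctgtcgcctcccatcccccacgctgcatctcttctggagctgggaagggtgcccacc
Aldoa, chr7:126799179-126799428, minus strand: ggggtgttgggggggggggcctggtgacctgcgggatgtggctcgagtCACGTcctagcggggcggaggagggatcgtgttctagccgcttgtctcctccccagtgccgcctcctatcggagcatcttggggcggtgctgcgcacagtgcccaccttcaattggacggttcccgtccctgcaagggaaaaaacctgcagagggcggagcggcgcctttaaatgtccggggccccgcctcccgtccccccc
Eno2, chr6:124769674-124769923, minus strand: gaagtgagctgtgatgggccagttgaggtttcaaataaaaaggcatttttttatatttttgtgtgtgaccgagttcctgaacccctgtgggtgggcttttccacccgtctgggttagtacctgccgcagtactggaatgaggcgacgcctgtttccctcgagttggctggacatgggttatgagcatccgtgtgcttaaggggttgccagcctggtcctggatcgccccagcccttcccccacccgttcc
Slc2a1, chr4:119108495-119108744, plus strand: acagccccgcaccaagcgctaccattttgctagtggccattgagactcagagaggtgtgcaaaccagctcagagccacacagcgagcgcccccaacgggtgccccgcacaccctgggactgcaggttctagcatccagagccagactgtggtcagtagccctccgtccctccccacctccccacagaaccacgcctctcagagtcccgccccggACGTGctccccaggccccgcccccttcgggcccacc

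Promoter windows were given for 29 members, all but Slc2a3. On both strands, ACGTG was in 13 of their 41 windows (31.7%), belonging to 10 genes, against 16.6% of 32851 windows of the same length over the genome. Windows of a gene can overlap, and the Aldoa windows with a match share the same site. A share per gene was not counted over the genome. CACGTG was in 2 of the 41 windows (4.88%), against 6.02% over the genome. Neither of these searched motifs was in the Aldoc or Eno2 windows, while the Slc2a1 window and the Aldoa window shown held 1 match of ACGTG each. A match is not a bound site, and no match says only that these letters are not in the window.

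**Figure D3:**
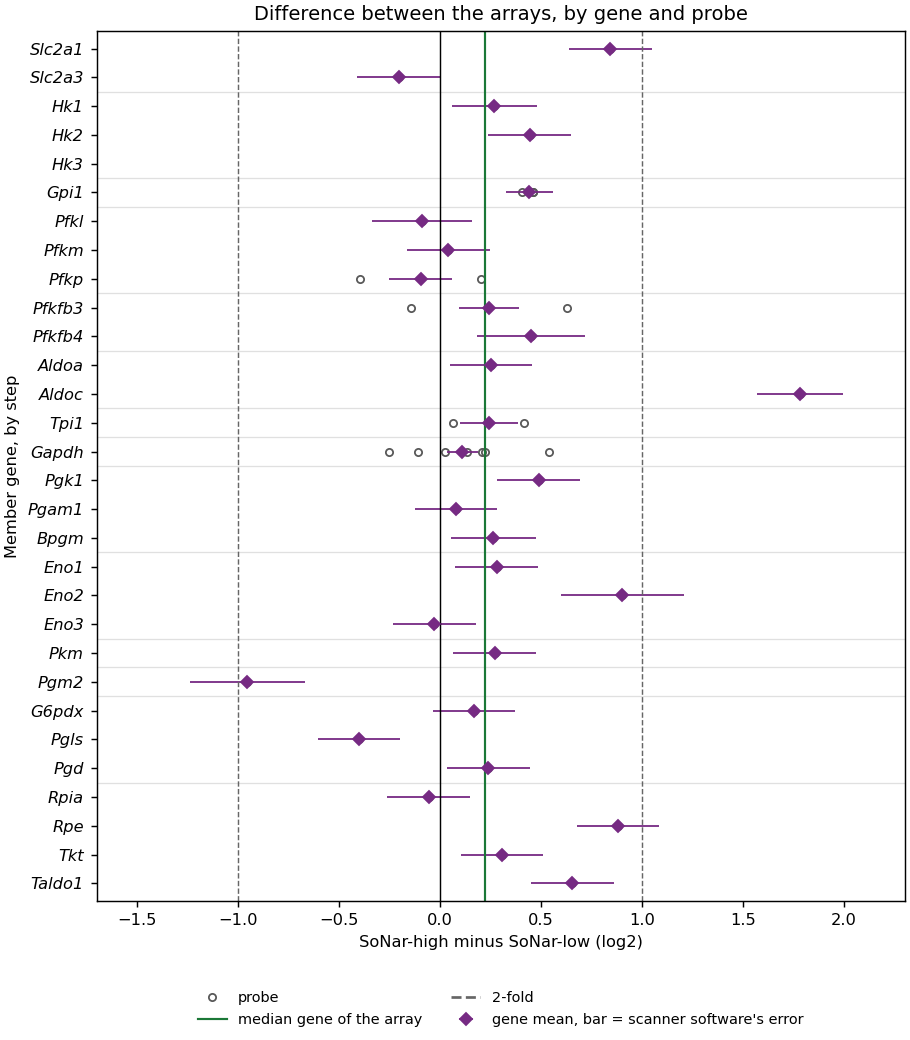
Difference between the arrays (SoNar-high minus SoNar-low, log2) of each measured member, with open circles for probes. Diamonds mark gene means with the combined software error, a green line the median gene (0.22) and dashed lines 2-fold. Aldoc lies past the upper dashed line, Pgm2 is lowest at -0.95, and the 7 Gapdh probes spread from -0.25 to 0.54.

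Tpi1, which interconverts the triose phosphates and ends the upper phase of glycolysis, read 15370 and 16878 units by one probe (0.066) and 4693 and 4040 units by the other (0.42), for a mean of 0.24 ± 0.14. The upper phase had a median of 0.25 over 13 measured members. The payoff phase from Gapdh to Pkm had a median of 0.27 over 8, with 7 above 0 and 0 past 2-fold. Pgk1, which makes the first ATP of the payoff steps, read 22078 and 18101 units, a difference of 0.49 ± 0.20. Pgam1, a phosphoglycerate mutase, read 28950 and 31493 units, a difference of 0.080 ± 0.20. These 2 neighbours lay on either side of the median gene. Pkm, the pyruvate kinase of dividing cells and muscle, read 22459 and 21419 units, a difference of 0.27 ± 0.20, and its single probe was not assigned to a splice form.

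Gapdh carries the step of glycolysis that makes cytosolic NADH, and its part in the sensor's signal was not tested. Its 7 probes ran from 1668 to 92615 units on the SoNar-high array and from 1321 to 92222 units on the SoNar-low array. Their differences ran from -0.25 to 0.54, with 5 above and 2 below 0, for a mean of 0.11 ± 0.08. The mean lay 0.11 below the median gene. The median gene lay within the range of the probes, but only the probe at 0.54 lay above it. Gapdh has many near-identical processed copies in the genome, which its probes may read as well.

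Bpgm makes 2,3-bisphosphoglycerate and is known from red cells. It read 373 and 357 units, a difference of 0.26 ± 0.21. Of 10 erythroid genes 3 were measured and went both ways, with Hba-a1 at -1.82, Hbb-bt at -0.42 and Hemgn at 0.89. Another 6 passed background on SoNar-low alone, as did 26.4% of all named genes. The list's summed scaled signals were 57.2 and 32.9. Hemgn made up most of both sums, and the other 9 genes summed to 1.45 and 2.79, the opposite direction. The part of red cells in the Bpgm signal was not tested.

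In the oxidative arm of the pentose phosphate pathway the dehydrogenases that make NADPH lay near the median gene. G6pdx, the entry enzyme, read 1896 and 1939 units, a difference of 0.17 ± 0.20. Pgd, the second dehydrogenase, read 6200 and 6039 units, a difference of 0.24 ± 0.20. Pgls, the lactonase between them, stood apart at 1149 and 1744 units, a difference of -0.40 ± 0.20. It lay below the median gene under the main processing and all 12 alternatives. Of these the constant scalings could not change its side, and the choices of probes and spots left its own difference at -0.40. It stood at -0.47 with normexp, -0.64 with quantile normalization, -0.72 with loess and -0.55 in the series matrix.

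The non-oxidative arm had the highest median of the 4 stretches of pathway described, 0.48 over 4 genes with 1 probe each. That value lay within the 25th to 75th percentile of all genes (-0.15 to 0.52). Rpe, the ribulose phosphate epimerase, read 982 and 613 units, a difference of 0.88 ± 0.20. Taldo1, the transaldolase, read 7439 and 5429 units, a difference of 0.66 ± 0.20. Tkt, the transketolase, read 28339 and 26369 units, a difference of 0.31 ± 0.20. Rpia, the ribose phosphate isomerase, went the other way at 774 and 926 units, a difference of -0.056 ± 0.20, and was the one gene of the arm below the median gene.

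Pgm2 was the lowest member. Its product interconverts phosphopentoses and links nucleoside breakdown to the pentose phosphates. It read 74.4 units on the SoNar-high and 165.6 units on the SoNar-low array, a difference of -0.95 ± 0.29, by 1 probe at 1.82 times the SoNar-high detection floor. It passed 2-fold under 2 other scalings, at -1.25 and -1.18, and stood between -0.39 and -0.96 under the others that measured it. The symbols of this family were exchanged over time. The gene now named Pgm1, which interconverts glucose-1- and glucose-6-phosphate and was once called Pgm2, read 6935 and 5060 units, a difference of 0.66 ± 0.20, so the old and the new reading of the symbol give opposite signs.

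**Figure D4:**
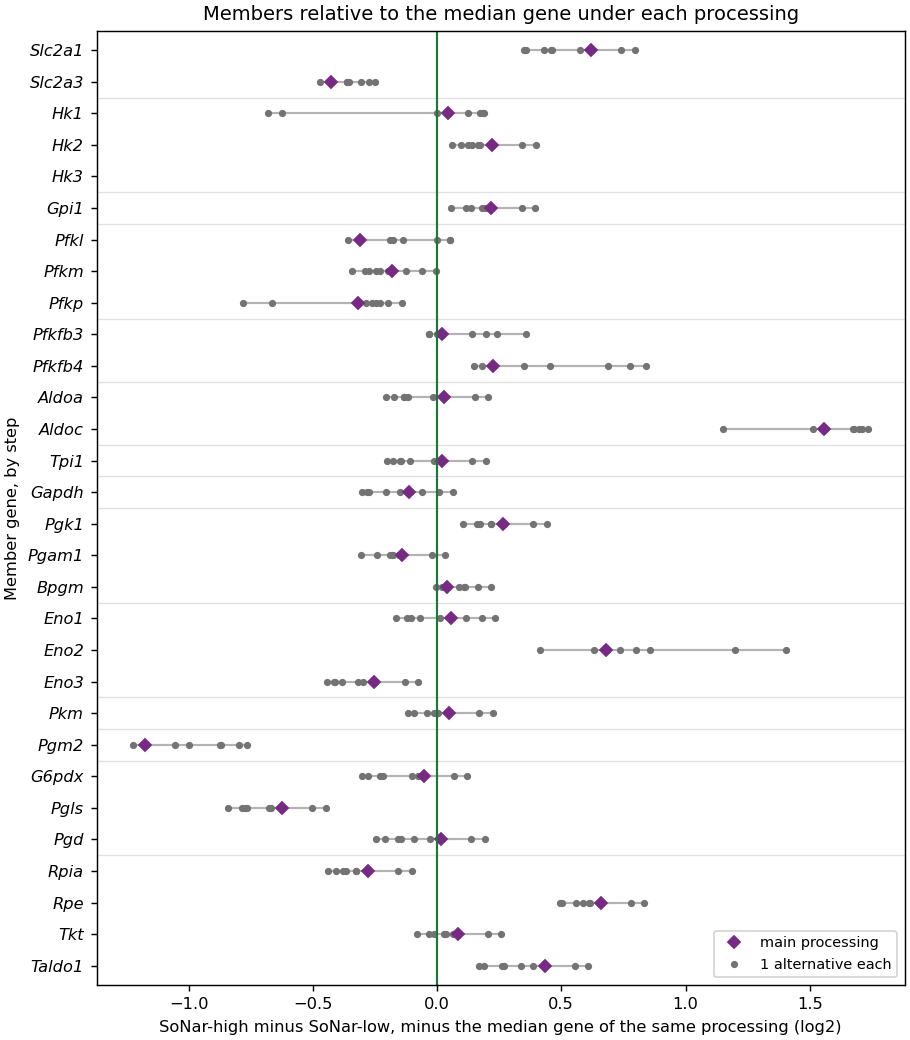
Difference of each measured member minus the median gene of the same processing (log2), with a diamond for the main processing, a dot for each alternative and a green line at the median gene. Aldoc stays at 1.15 or above, Pgm2 at -0.76 or below, and 13 of the 29 members cross the line. Dots of alternatives that scale an array by a constant coincide with the diamond.

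Relative to the median gene, 9 members lay above it under every processing that measured them (Slc2a1, Hk2, Gpi1, Aldoc, Pgk1, Eno2, Pfkfb4, Rpe and Taldo1), 7 lay below it (Slc2a3, Pfkm, Pfkp, Eno3, Pgm2, Pgls and Rpia), and 13 changed sides. The abundant enzymes Aldoa, Tpi1, Eno1, Pkm and Pgd were among those 13. Alternatives that scale an array by a constant cancel against the median gene and could not move a member across it. The probe filters left the difference of most members with 1 measured probe unchanged. In the main processing 9 members lay beyond 2 software errors from the median gene (Slc2a1, Slc2a3, Pfkp, Aldoc, Eno2, Pgm2, Pgls, Rpe and Taldo1). Hk2, Gpi1, Pgk1, Pfkfb4, Pfkm, Eno3 and Rpia kept their side but were not among these, and Pfkm came as close as -0.005.

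Other genes of glucose handling were counted beside the members. Of 51 such genes 49 had a probe and 26 were measured, with a median of 0.42. Above 0 were 24 of the 26, against 66.9% of all genes and 22 of the 29 members. Past 2-fold was 1 gene, Pgm2l1, which makes glucose-1,6-bisphosphate (142.5 and 78.3 units, 1.07). Lowest was Shpk, the sedoheptulokinase (105 and 192 units, -0.67). Of the rest, 15 passed background on SoNar-low alone (30.6% of the 49, against 26.4% of all named genes) and 8 on neither (16.3%, against 22.5%). G6pc, the glucose-6-phosphatase of liver (48.3 and 188.2 units), read 3.39-fold lower in the SoNar-high sample. That is the ratio of the readings and no firm bound, since 48.3 units lies above the SoNar-high floor of 40.8.

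The label of the cells was checked against 18 B-lineage genes. Of these 13 were measured, among them Cd79b (12625 and 14377 units), with a median of 0.31 and 1 gene lower (Cd22 at -1.10). Genes known from early B cells were split. Vpreb1 (118 and 128 units), Vpreb3 (12061 and 9345 units), Dntt (182 and 169 units) and Ebf1 (948 and 553 units) passed background on both arrays, Vpreb2 on SoNar-low alone, and Igll1, Rag1, Rag2 and Il7r on neither. Of other cell types, 2 of 5 measured monocyte and macrophage genes, 2 of 3 T and NK genes, 2 of 2 lung genes and 1 of 4 stroma and endothelium genes were past 2-fold lower, and 0 of them higher. Also lower were 1 of 11 neutrophil, 1 of 3 erythroid and 1 of 6 neuron genes, while 2 neuron and 2 oligodendrocyte genes were higher. Over all genes 4.39% were lower and 2.4% higher. The part of these cell types in the members' values was not tested. The SoNar-high array had fewer spots well above background (44.8%, against 72.9%), and the arrays were not scanned together, so that scan and group cannot be told apart.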

How the data were processed

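Total RNA of 1 SoNar-high and 1 SoNar-low sample was labelled with Cy3, per the labels. The authors' deposited scanner files hold background-subtracted intensity values from Agilent Feature Extraction 11.0.1.1, per the file headers; the submitters' processing notes name version 9.1. The authors also deposited a matrix of log2 values (median 5.90 in both columns). These rank the probes as the scanner files do (Spearman's rho 1.000 and 0.9998 across probes), in the same direction. The method and centring are not given in the sources used here, and the matrix served as an alternative.

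Control and outlier spots were not used, and saturated spots numbered 0. Log2 signals were averaged over a probe's spots (39085 probes), and each array's 75th percentile was subtracted. A probe counted as well above background where at least 50% of its spots carried the scanner's call. Accessions were matched to symbols of GRCm38.p6, leaving 11970 probes unnamed. A gene's difference averages those probes that passed on both arrays. It was called at 2-fold, with 1.5-fold beside it, and no test was possible. Where only 1 array passed, the bound divides the bright value by the dim array's floor (its lowest passing value) or by the dim probe's own value, whichever is higher. In the second case the result is the plain ratio of the readings and no firm bound. The gene step was tested on simulated data.

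All members are named, and other pathway genes past 2-fold, by bound too, or at either end of their list, except for an item not reported here. Members and lists were chosen with earlier results of these data known. Marker lists were B lineage, neutrophil, monocyte and macrophage, T and NK, erythroid, platelet, neuron, astrocyte, oligodendrocyte, muscle, lung, and stroma and endothelium; single markers were picked after their values were seen. Alternatives were other background corrections (normexp on the median signal), scalings, probe filters, thresholds and the series matrix. Software comprised Python 3.11.15 (numpy 2.4.6, pandas 2.3.3, statsmodels 0.14.6, matplotlib 3.10.9) and R 4.3.3 (limma 3.58.1).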

Additional observations from a re-analysis of the deposited data

How the results depend on the processing

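Aldoc stayed at least 2-fold higher under every alternative that measured it (1.36 to 2.35); the stricter filter, which kept the brighter 50% of probes, dropped its probe and left 0 of 21 members higher. Of 29 members, 9 were at least 2-fold higher with scaling to the median of all probes, which put 32.1% of all genes past 2-fold higher, 2 with quantile normalization and 2 in the series matrix (Aldoc and Eno2 both times), and 5 at a threshold of 1.5-fold. At least 2-fold lower was 1 member (Pgm2) with the 75th percentile of probes above background on both arrays and 1 when centred on the median gene, and 1 was lower at 1.5-fold. The members' median moved from 0.25 to 0.82 (median scaling), -0.043 (that 75th percentile), 0.030 (median gene) and 0.051 (loess on the level), and the median gene moved with it, to 0.79, -0.073, 0 and 0.051. Under the probe filters the medians parted, and members minus all genes was 0.20 with no filter, 0.14 with the background call from negative control spots and -0.13 with the stricter filter. Over all genes, 35.4% of those past 2-fold were higher in the main processing. The share was 96.0% with median scaling, 6.67% with that 75th percentile, 8.62% when centred on the median gene, 18.2% with loess, 23.0% with normexp, 47.0% with quantile normalization, 54.5% in the series matrix and 56.0% with the stricter filter.

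Gaps between isoenzymes moved by more than the spread between spots (0.15) as follows, in the order normexp, quantile normalization, loess and series matrix where all 4 moved. Aldoc minus Aldoa was 1.27, 1.92, 1.83 and 1.85, Eno2 minus Eno3 0.73, 1.64, 1.12 and 1.82, Slc2a1 minus Slc2a3 0.74, 0.72, 0.79 and 0.71, Hk1 minus Hk2 0.027, 0.048, 0.022 and 0.048, and Pfkl minus Pfkm 0.024, 0.34, 0.25 and 0.32. Eno2 minus Eno1 was 1.27 (quantile) and 1.53 (series matrix). Hk1 minus Hk2 was -1.02 both with no filter on dim probes and with the background call from negative control spots, since both add its dim probe. Pfkm minus Pfkp was 0.44 with the stricter filter and with the brightest probe, and -0.026 in the series matrix. Pfkfb3 minus Pfkfb4 was -0.72 (quantile), -0.45 (loess), -0.64 (no filter), 0.18 (brightest probe) and -0.81 (series matrix). Where no construction is named, the cause was not tested. Counting Pgm1 and Eno1b as members, chosen after seeing the data, left 1 higher and 0 lower at 2-fold and made 6 of 31 higher at 1.5-fold. No paired analysis was possible because each group has 1 sample.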
